A study of Mus musculus with 8 samples.

Results

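The nuclear genes of respiratory complexes III, IV and the ATP synthase were compared between wild-type and Mbd2-/- mouse hippocampus. They were taken from the deposited table by symbol, as every row that starts with Uqcr, with Cox4 to Cox8 or with Atp5, and 42 of the 19201 genes in the table met this rule. Of these, 8 carry complex III symbols, 17 complex IV symbols and 17 ATP synthase symbols. In all, 39 encode subunits, and 3 share a prefix without being subunits, namely Cox7a2l, Atp5s and Atp5sl.

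The libraries came from 4 pools of wild-type C57BL/6 mice, which the labels call control, and 4 pools of Mbd2-/- mice kept on a C57BL/6 background. Each pool joined the hippocampi of both sides from 2 mice aged 10 to 12 weeks, and the genotypes were littermates bred from heterozygous parents. The Mbd2-/- allele removes the methyl-CpG binding protein Mbd2 from the whole animal rather than from a single cell type, and it keeps exon 1, from which reads can still arise. Ribosomal RNA was depleted from total RNA before sequencing, and the values are normalized counts, that is reads on a gene divided by a size factor of the library.

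Complex III (cytochrome bc1) passes electrons from ubiquinol to cytochrome c, and complex IV (cytochrome c oxidase) passes them on to oxygen. Both pump protons across the inner mitochondrial membrane, and the ATP synthase lets the protons flow back through its membrane ring while its F1 head makes ATP. The catalytic core of complex IV and a few other subunits are encoded in mitochondrial DNA, and the subunits described here are encoded in the nucleus. Several complex IV subunits exist as a ubiquitous isoform and as an isoform largely restricted to tissues such as heart, skeletal muscle, lung or testis, and Cox8b belongs to the second kind.

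Total reads on genes ran from 8439570 to 23790825 in wild-type (median 15279428) and from 8087750 to 14020765 in Mbd2-/- libraries (median 11545382). Mbd2 itself was lower in Mbd2-/- libraries by limma (log2 fold change -0.43 ± 0.12 SE, adjusted p = 0.0174), but the genotypes overlapped and the call was lost without wild-type replicate 3 (adjusted p = 0.0625), Mbd2-/- replicate 1 (0.0542) or Mbd2-/- replicate 2 (0.0579). Log2 ratios of the libraries to the wild-type mean fell with transcript length in Mbd2-/- replicates 1 to 3 (Spearman's rho over genes -0.48, -0.43 and -0.48) and less so in replicate 4 (-0.10), against -0.07 to 0.06 in the wild-type libraries. The members had a median longest transcript of 829 bases, against 3187 over all tested genes. The main results are therefore also given after the length trend of each library was removed, by longest transcript unless stated otherwise.

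Of the 42 genes, 41 had a mean normalized count of at least 10 and were tested, and Cox7b2 was below it. In Mbd2-/- hippocampus 34 of the 41 were higher and 0 were lower by limma at an adjusted p under 0.05 (0 lower also at an unadjusted p under 0.05), where 12.0% of all 14504 tested genes were called higher and 10.0% lower. The same 34 were called by DESeq2, which called 35 higher and 0 lower, and by edgeR, which called 36 and 0. The log2 fold change was above 0 in 41 of 41, with a median of 0.38, while the median over all tested genes was -9.1e-05. The changes were small, since only 4 called members, Cox8b, Cox6b2, Atp5k and Cox5b, reached 1.5-fold. In 29 members every Mbd2-/- library lay above every wild-type library, which was the case for 12.1% of all tested genes. With the length trend removed, 17 members remained called out of the 34, the median was 0.13 and 33 of 41 were above 0, where 8.05% of the genes with a known length were called higher. The tissue is bulk hippocampus, in which a change in the number of cells of a type and a change in RNA per cell cannot be told apart.

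**Figure D1:**
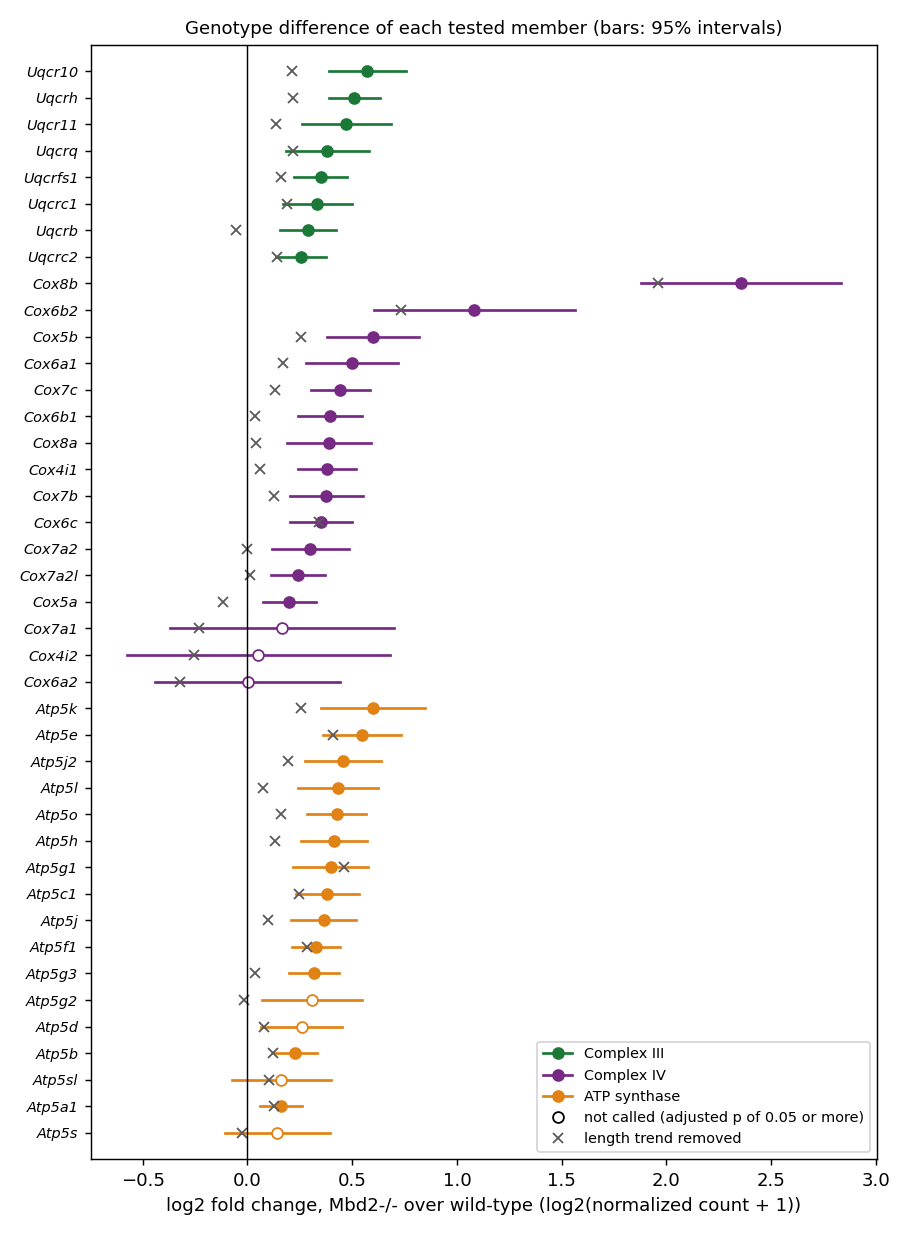
Log2 fold change (Mbd2-/- over wild-type, log2(normalized count + 1)) of the 41 tested members with 95% intervals, ordered within each complex, filled where called by limma. Crosses give the value with the length trend removed. All points lie at or right of 0, Cox8b at 2.36 stands apart, and 8 crosses lie left of 0.

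All 8 complex III genes were called higher in Mbd2-/- hippocampus by limma, where 12.0% of all tested genes were. The 3 core subunits ran from 0.26 for Uqcrc2 to 0.35 for Uqcrfs1, and the 5 small subunits from 0.29 for Uqcrb to 0.57 for Uqcr10. With the length trend removed, 5 of the 8 were still called, where 8.05% of all genes were called higher.

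Uqcrh, the hinge protein at the cytochrome c docking side, measured 1349, 1258, 1392 and 1326 normalized counts in wild-type replicates 1 to 4. In Mbd2-/- replicates 1 to 4 it measured 1910.3, 1898.5, 2035 and 1749. All Mbd2-/- libraries lay above all wild-type ones (log2 fold change 0.51 ± 0.06 SE, limma adjusted p = 3.46e-05). After length correction it was 0.22 (adjusted p = 0.00649), and reads of the opposite-strand gene Gm12854 that overlaps it may be included, since the strand used in counting is not given in the sources used here.

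Uqcr10, a small membrane subunit, rose from 847, 934, 861 and 884 to 1368, 1375, 1495 and 1047 normalized counts. The groups did not overlap, with Mbd2-/- replicate 4 the lowest of its group (log2 fold change 0.57 ± 0.09 SE, limma adjusted p = 0.000436). Uqcrfs1, the Rieske iron-sulfur protein that carries electrons within complex III, rose from 1238, 1109.7, 1186 and 1286 to 1583, 1546, 1597 and 1417. It too had no overlap (log2 fold change 0.35 ± 0.06 SE, limma adjusted p = 0.000909). Both stayed called after length correction (0.21 and 0.16).

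The 10 ubiquitous complex IV subunits were all called higher, from 0.20 for Cox5a to 0.60 for Cox5b. Of all tested genes 12.0% were called higher. With the length trend by longest transcript removed, 2 of the 10, Cox5b and Cox6c, were still called, where 8.05% of all genes were. By median coding transcript, Cox6c lost the call (0.12, adjusted p = 0.155), and Cox5b (0.37), Cox6a1 (0.28), Cox7c (0.22), Cox4i1 (0.18) and Cox6b1 (0.16) were called. Cox5b binds a zinc ion and Cox5a is its partner on the matrix side. The call of Cox5a was lost when wild-type replicate 2, 3 or 4 or Mbd2-/- replicate 1 or 2 was left out. Cox4i1, which carries the site where ATP regulates the enzyme, measured 4514, 4441, 4361 and 4486 normalized counts in wild-type and 5673, 6008, 6578 and 5012 in Mbd2-/- libraries. The groups did not overlap (log2 fold change 0.38 ± 0.07 SE, limma adjusted p = 0.000905), and the value was 0.06 with the length trend by longest transcript removed and 0.18 by median coding transcript. Cox7c, a small membrane subunit, rose from 694, 653, 593 and 687 to 976, 887, 854 and 855, again without overlap (0.44 ± 0.07 SE, limma adjusted p = 0.00038). Cox7c has 3 near-identical copies elsewhere in the genome, to which its reads could also match, and its value after length correction was 0.13 by longest and 0.22 by median coding transcript. Annotated genes on the same strand overlap Cox4i1 (Gm20388) and Cox7c (snoZ39).

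Cox6a1 and Cox8a are the ubiquitous partners of muscle isoforms. Cox6a1 measured 3570.2, 3303, 3536 and 3736 in wild-type and 5123, 5173, 6055 and 3883 in Mbd2-/- libraries (log2 fold change 0.50 ± 0.10 SE, limma adjusted p = 0.00431). Cox8a measured 3413, 3427, 3403 and 3694 and then 5256, 4808, 4847 and 3538 (0.39 ± 0.09 SE, limma adjusted p = 0.00998). Cox6a1 had no overlap, while for Cox8a Mbd2-/- replicate 4 lay below wild-type replicate 4.

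Of the remaining partners, Cox6b1, which faces cytochrome c, had 1791, 1701, 1799 and 1713 normalized counts against 2353, 2358, 2611 and 1938 (0.39 ± 0.07 SE, limma adjusted p = 0.00138). Cox7b had 787, 994, 740.2 and 860.4 against 1216, 1081, 1063 and 1017 (0.38 ± 0.08 SE, adjusted p = 0.00448). Neither overlapped between genotypes. Cox7a2 had 884, 1158, 959.9 and 1005 against 1445, 1176, 1213 and 1105, with overlap (0.30 ± 0.09 SE, adjusted p = 0.0212), and its call was lost without wild-type replicate 1 or 3 or Mbd2-/- replicate 1. With the length trend removed the values of Cox8a, Cox6b1 and Cox7a2 lay between -3.81e-04 and 0.04 by longest transcript and between 0.11 and 0.17 by median coding transcript. Cox7b and Cox6a1 had 0.13 and 0.17 by longest transcript, where both calls were lost, and 0.21 and 0.28 by median coding transcript, where that of Cox6a1 was kept.

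Among the restricted isoforms, Cox8b and Cox6b2 were higher in Mbd2-/- hippocampus, whereas Cox6a2, Cox7a1 and Cox4i2 did not pass the test and Cox7b2 was too low to test. Per kb of the longest annotated transcript the 5 tested isoforms had 14.4 to 54.3 normalized counts in wild-type, against 509.8 to 6555 for the ubiquitous subunits, so that they were a small part of the family in this tissue.

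Cox8b, the isoform of subunit 8 known from heart, skeletal muscle and brown fat (mm9 chr7:148084842-148086345, minus strand), measured 12.0, 9.78, 10.9 and 12.7 normalized counts in wild-type replicates 1 to 4. In Mbd2-/- replicates 1 to 4 it measured 91.9, 45.7, 71.7 and 49.0. The lowest Mbd2-/- library had several times the highest wild-type value, and the spread among Mbd2-/- libraries was wider than among wild-type ones. The log2 fold change was 2.36 ± 0.23 SE (95% interval 1.88 to 2.83, 5.12-fold, limma adjusted p = 8.7e-06). It was 1.96 with the length trend removed and 2.17 to 2.50 with any library left out. These values rest on 8 to 72 reads per library, and no annotated gene overlaps Cox8b and no near-identical copy of its coding sequence was found. Markers of the choroid plexus were also higher in the Mbd2-/- libraries, with a sum of 25116 to 26717 normalized counts in wild-type and 48051 to 54438 in Mbd2-/- libraries, and their part in the value of Cox8b was not tested.

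Cox6b2, an isoform known from testis (mm9 chr7:4703396-4704696, minus strand), measured 10.5, 17.3, 20.1 and 21.2 in wild-type and 34.5, 37.5, 31.9 and 43.2 in Mbd2-/- libraries. The groups did not overlap, and Mbd2-/- replicate 4 was here the highest of its group. The log2 fold change was 1.08 ± 0.23 SE (limma adjusted p = 0.00342), on 7 to 45 reads per library, and 0.74 with the length trend removed (adjusted p = 0.045).

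Cox7a1, the heart and skeletal muscle isoform of subunit 7a, measured 21.0, 17.3, 20.1 and 20.7 in wild-type and 26.8, 23.8, 30.3 and 12.5 in Mbd2-/- libraries. Mbd2-/- replicates 1 to 3 lay above and replicate 4 below all wild-type libraries (log2 fold change 0.17 ± 0.25 SE, 95% interval -0.37 to 0.70, limma adjusted p = 0.68). Cox6a2, the muscle isoform of subunit 6a, was the most abundant complex IV member that was not called, with 32.97, 30.8, 31.9 and 34.5 against 42.1, 37.5, 35.1 and 20.2. It showed the same pattern over the libraries (0.00 ± 0.21 SE, interval -0.44 to 0.44, adjusted p = 0.998), and Itgad overlaps it on the opposite strand.

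Cox4i2, the isoform of subunit 4 known from lung, measured 8.99, 6.77, 12.8 and 13.8 in wild-type and 11.5, 10.1, 12.8 and 8.65 in Mbd2-/- libraries. The groups overlapped fully (0.05 ± 0.30 SE, interval -0.58 to 0.68, limma adjusted p = 0.92). Cox7b2 had 3.00, 1.505, 1.82 and 2.12 against 1.28, 4.57, 0 and 4.80, which is at most 5 reads per library. At this depth no difference in Cox7b2 could be measured, and without Mbd2-/- replicate 4 the log2 fold changes of Cox7a1 and Cox6a2 were 0.43 and 0.22 (adjusted p = 0.146 and 0.371).

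**Figure D2:**
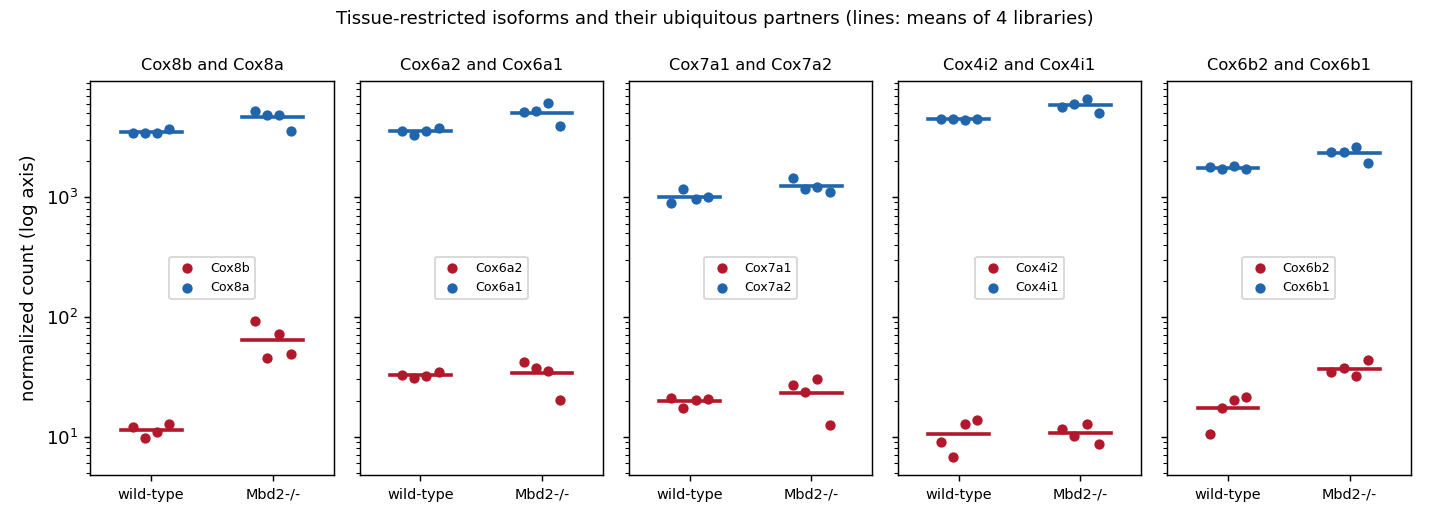
Normalized counts (log axis) of each restricted complex IV isoform (red) and its ubiquitous partner (blue) in the 4 wild-type and 4 Mbd2-/- libraries, with lines at the means. The red points separate by genotype for Cox8b (9.78 to 12.7 against 45.7 to 91.9) and Cox6b2, and overlap for Cox6a2, Cox7a1 and Cox4i2.

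To ask whether an isoform moved apart from its partner, the log2 ratio of both (normalized count + 1) was taken within each library. This cancels the scaling of the library except for the pseudocount of 1, which weighs more in the low isoforms. Cox8b/Cox8a was -8.04, -8.31, -8.16 and -8.07 in wild-type and -5.82, -6.69, -6.06 and -6.15 in Mbd2-/- libraries. The ratio thus rose by 1.97 ± 0.19 SE on the log2 scale (interval of the exact permutation test 1.36 to 2.49, two-sided exact p = 0.0286, n = 4 per genotype). Per kb, Cox8b made up 0.428% to 0.526% of the Cox8 transcripts in wild-type and 1.41% to 2.57% in Mbd2-/- libraries.

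Cox6a2/Cox6a1 moved the other way, from -6.72, -6.70, -6.75 and -6.72 to -6.89, -7.07, -7.39 and -7.52. All Mbd2-/- values lay below all wild-type values (difference -0.50 ± 0.14 SE, interval -0.82 to -0.15, exact p = 0.0286), and Cox6a2 made up 0.843% to 0.872% of the pair in wild-type and 0.487% to 0.769% in Mbd2-/- libraries. Cox6b2/Cox6b1 was 0.69 ± 0.29 SE higher (interval -0.04 to 1.83, exact p = 0.0571). Cox7a1/Cox7a2 differed by -0.14 ± 0.27 SE (interval -1.02 to 0.70, exact p = 0.629) and Cox4i2/Cox4i1 by -0.33 ± 0.23 SE (interval -0.84 to 0.32, exact p = 0.257).

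A p of 0.0286 is the smallest that 4 libraries against 4 allow. Adjusted over the 5 pairs by Benjamini-Hochberg, the exact p was 0.0714 for Cox8b/Cox8a and Cox6a2/Cox6a1, 0.0952 for Cox6b2/Cox6b1, 0.321 for Cox4i2/Cox4i1 and 0.629 for Cox7a1/Cox7a2, so that no ratio passed 0.05 after adjustment.

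**Figure D3:**
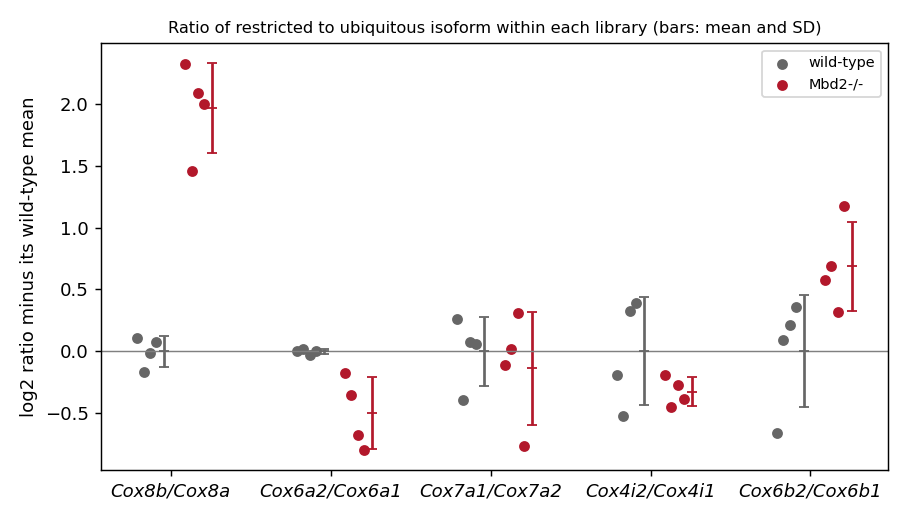
Log2 ratio of each restricted isoform to its ubiquitous partner within each library, shown as the difference from the wild-type mean, with the mean and SD beside the 4 points of each genotype. Cox8b/Cox8a lies 1.97 above and Cox6a2/Cox6a1 0.50 below the wild-type mean, each without overlap, and the other pairs overlap.

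Promoters of both isoform classes are shown so that the letters around their starts can be read beside the values. RefSeq promoter sequences (build GRCm38.p6, 250 bases before to 50 after a start) were found for 34 of the 42 genes, with 38 sequences in all. No entry was found for Atp5a1, Cox4i1, Cox4i2, Cox6a2, Cox6c, Uqcrb, Uqcrc2 and Uqcrq. The motifs searched on both strands were GCGCATGC, read by NRF1, CCGGAAG, read by ETS factors such as GABPA, and AANATGGCG, read by YY1. TATAAA, the TATA box, was searched on the strand of the gene only. Capitals mark matches in the sequences below, given 5' to 3' on the strand of the gene, for Cox8b at chr7:140900397-140900696 (minus strand), Cox8a at chr19:7217567-7217866 (minus), Cox6b2 at chr7:4753045-4753344 (minus), Cox7a1 at chr7:30183921-30184220 (plus) and Uqcrh at chr4:116075021-116075320 (minus).
Cox8b: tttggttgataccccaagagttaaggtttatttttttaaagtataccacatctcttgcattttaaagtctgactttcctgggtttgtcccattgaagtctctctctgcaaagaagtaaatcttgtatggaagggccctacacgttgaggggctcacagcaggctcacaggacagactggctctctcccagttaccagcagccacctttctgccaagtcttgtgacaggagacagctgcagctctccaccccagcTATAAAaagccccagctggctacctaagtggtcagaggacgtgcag
Cox8a: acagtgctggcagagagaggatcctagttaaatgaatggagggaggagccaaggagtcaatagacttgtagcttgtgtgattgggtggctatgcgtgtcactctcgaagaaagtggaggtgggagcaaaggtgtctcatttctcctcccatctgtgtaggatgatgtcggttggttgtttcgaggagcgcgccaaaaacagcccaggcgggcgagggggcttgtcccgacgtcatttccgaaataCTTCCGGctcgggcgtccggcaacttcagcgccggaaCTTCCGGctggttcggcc
Cox6b2: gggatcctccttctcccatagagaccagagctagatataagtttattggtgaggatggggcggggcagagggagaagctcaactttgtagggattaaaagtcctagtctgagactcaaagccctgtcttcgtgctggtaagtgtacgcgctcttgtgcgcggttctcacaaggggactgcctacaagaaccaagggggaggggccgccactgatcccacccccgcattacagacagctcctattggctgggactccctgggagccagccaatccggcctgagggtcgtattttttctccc
Cox7a1: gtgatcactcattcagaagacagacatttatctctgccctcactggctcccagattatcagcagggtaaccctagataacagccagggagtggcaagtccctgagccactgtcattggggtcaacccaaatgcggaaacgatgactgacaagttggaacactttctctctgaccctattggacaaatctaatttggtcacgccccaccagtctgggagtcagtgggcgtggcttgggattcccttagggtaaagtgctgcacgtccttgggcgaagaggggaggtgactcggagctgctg
Uqcrh: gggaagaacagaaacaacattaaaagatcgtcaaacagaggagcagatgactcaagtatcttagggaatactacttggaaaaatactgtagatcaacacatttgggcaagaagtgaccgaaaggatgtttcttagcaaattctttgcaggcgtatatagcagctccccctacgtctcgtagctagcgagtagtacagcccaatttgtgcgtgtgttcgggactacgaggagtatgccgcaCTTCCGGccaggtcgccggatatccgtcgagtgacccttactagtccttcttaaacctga

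The Cox8b promoter holds TATAAA 4 bases after the annotated start and none of the other motifs, and that of Cox8a holds 2 ETS motifs as the reverse complement CTTCCGG. Uqcrh holds 1 ETS motif, and Cox6b2 and Cox7a1 hold none of the 4. NRF1 motifs were present in 15.8% of the member promoters and 2.71% of all 32851 promoters. ETS motifs were present in 26.3% and 8.86%, YY1 motifs in 13.2% and 2.38%, and TATAAA in 2.63% and 8.32%, and no matches of different motifs overlapped in a member. At least 1 of NRF1, ETS and YY1 was found in 16 of 34 promoters of the other members and in 0 of 4 of the restricted isoforms, against 12.8% of all promoters, so that 4 sequences are too few to set the isoforms apart from promoters at large.

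CpG dinucleotides, to which Mbd2 binds when methylated, numbered 2 in the Cox8b promoter, 10 in Cox6b2 and Cox7b2 and 7 in Cox7a1. The other member promoters had a median of 19.5 (5 to 43), with 19 for Cox8a, and all promoters a median of 7. Cox8b, which rose most, and Cox7a1, which was not called, thus both lay below the median of the other members. These are counts of letters, and neither binding nor methylation was measured here.

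Of the 17 ATP synthase symbols 13 were called higher and 0 lower, where 12.0% of all tested genes were higher and 10.0% lower. With the length trend removed 8 were still called, where 8.05% of all genes were called higher. By part of the enzyme, 4 of 5 F1 subunits (0.16 to 0.55), 4 of 4 stalk subunits (0.33 to 0.43), 2 of 3 genes for the c subunit of the rotor ring (0.31 to 0.40) and 3 of 3 other membrane subunits (0.43 to 0.60) were called.

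In the F1 head, the catalytic beta subunit Atp5b was higher by 0.23 on the log2 scale and the alpha subunit Atp5a1 by 0.16, and both stayed called after length correction (0.12 and 0.13). Atp5a1 measured 10499, 10317, 10015 and 10045 normalized counts in wild-type and 11739, 11239, 12139 and 10651 in Mbd2-/- libraries, without overlap. Its difference was the smallest of those called (0.16 ± 0.05 SE, limma adjusted p = 0.0221), and it was lost without wild-type replicate 3 or 4 or without Mbd2-/- replicate 1, 2 or 3. Atp5a1 is the only member on the chromosome of Mbd2, at a distance of 7.3 Mb.

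Atp5e, the epsilon subunit at the foot of the F1 head, rose from 1058, 1144, 1158 and 1120.2 to 1786, 1546, 1932 and 1342. The groups did not overlap (0.55 ± 0.09 SE, limma adjusted p = 0.000693), and 0.41 remained with the length trend removed, where its longest transcript of 1697 bases was used although the median of its coding transcripts is 421 bases. Atp5d, the delta subunit beside it, was the most abundant ATP synthase gene not called by limma, with 1511, 1542, 1554 and 1613 against 2026.5, 1939, 2102 and 1450.1. Mbd2-/- replicates 1 to 3 lay above and replicate 4 below all wild-type libraries (0.26 ± 0.09 SE, limma adjusted p = 0.0521). Atp5d was called by DESeq2 (adjusted p = 0.026) and edgeR (0.0457), and by limma with a filter at a mean of 50 (0.0462) or without Mbd2-/- replicate 4 (0.38, adjusted p = 1.14e-06), while its value was 0.08 with the length trend removed.

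In the stalk that holds the head in place, Atp5o, the oligomycin sensitivity protein, rose from 1489.8, 1557, 1548 and 1535 to 2239.7, 2129.9, 2139 and 1762. Atp5f1, the b subunit, rose from 2173, 2079, 2178 and 2201 to 2821, 2733, 2836 and 2467. Neither gene overlapped between genotypes (0.43 ± 0.07 SE, limma adjusted p = 0.000451, and 0.33 ± 0.05 SE, 0.000693). Both were still called after length correction (0.16 and 0.28). Annotated genes on the opposite strand overlap both, and Atp5o is also overlapped by 3 on its own strand.

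The c subunit is encoded by 3 genes with the same mature protein, of which Atp5g1 (0.40) and Atp5g3 (0.32) were called by limma and Atp5g2 (0.31, adjusted p = 0.06) was not. Atp5g2 was called by edgeR (adjusted p = 0.0393), not by DESeq2 (0.061), and by limma without Mbd2-/- replicate 4 (0.40, adjusted p = 0.00509). Of the membrane subunits, Atp5k (0.60), Atp5j2 (0.46) and Atp5l (0.43) were called by limma. After length correction Atp5j2 (0.20) and Atp5g1 (0.46) kept the call, while Atp5k (0.26, adjusted p = 0.0939), Atp5l (0.07, adjusted p = 0.646) and Atp5g3 (0.04, adjusted p = 0.654) lost it. By median coding transcript Atp5g1 lost the call instead (0.20, adjusted p = 0.0512) and Atp5k kept it (0.32, adjusted p = 0.036), and Atp5l and Atp5g3 lost it again. Atp5l has 8 near-identical copies elsewhere in the genome. In all 13 members had such copies (at least 95% identity over at least 90% of the coding sequence), and 14 were overlapped by another annotated gene.

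Of the 3 genes that are not subunits, Cox7a2l, which helps to join complexes III and IV into supercomplexes, was higher. It measured 1190.1, 1118, 1209 and 1189.7 in wild-type and 1337, 1388, 1551 and 1297 in Mbd2-/- libraries, without overlap (0.24 ± 0.06 SE, limma adjusted p = 0.0106), and 0.01 with the length trend removed. Atp5s (0.14) and Atp5sl (0.16) did not pass the test (adjusted p = 0.409 and 0.315).

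The members moved together within libraries. Their median log2 difference from the wild-type mean was 0.43, 0.42, 0.44 and 0.17 in Mbd2-/- replicates 1 to 4 and -0.02 to 0.02 in the wild-type libraries. Mbd2-/- replicate 4 was the lowest of its group in 29 of the 34 called members and lay above every wild-type library in 29 of the 34, while replicates 1 to 3 lay above every wild-type library in 34 of the 34. Without replicate 4, 37 members were called and the median was 0.43.

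**Figure D4:**
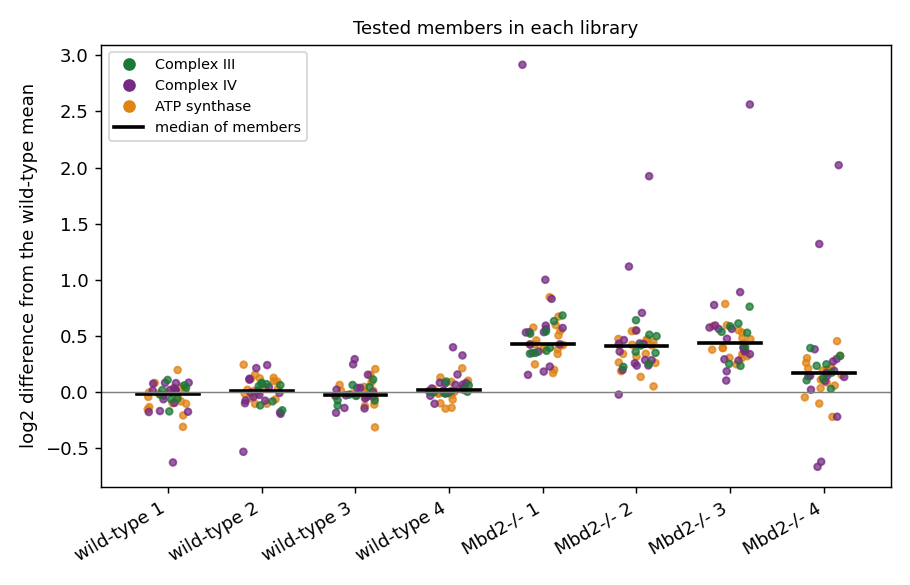
Log2 difference of each of the 41 tested members from its wild-type mean, by library and coloured by complex, with a black line at the median. The medians of Mbd2-/- replicates 1 to 3 lie at 0.42 to 0.44 and that of replicate 4 at 0.17, and Cox8b is the top point in each Mbd2-/- library.

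Mbd2-/- replicate 4 was also the library of its group with the weakest length trend. All tested genes with a known length were split into 10 bins of like size by their longest transcript. Of the 1420 genes in the shortest bin (up to 1307 bases) 38.2% were called higher and the median log2 fold change was 0.26, while 23 of the 27 members in this bin were called and their median was 0.39. Of the genes in the next bin (up to 1845 bases) 21.8% were called higher and the median was 0.15, while 5 of 7 members were called and their median was 0.35. Across members the log2 fold change went with length by a Spearman's rho of -0.39 (n = 41), against -0.46 over all 14186 tested genes with a length, and with the mean level by -0.01. With the median of the coding transcripts in place of the longest, the rho over members was -0.67, 22 members were called and their median was 0.20. The part of transcript length in the differences was not tested beyond these values.

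**Figure D5:**
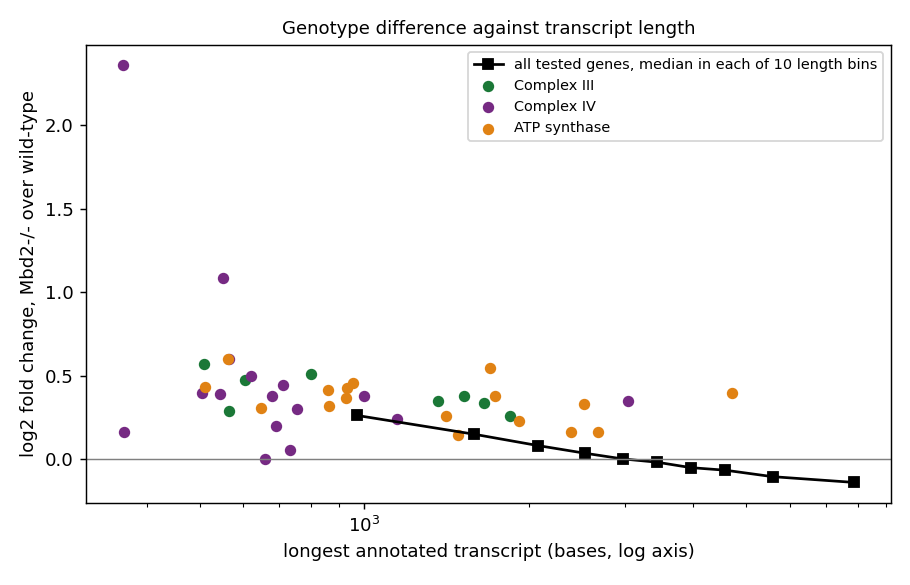
Log2 fold change of each tested member (coloured by complex) against its longest annotated transcript in bases (log axis), with black squares at the median of all tested genes in each of 10 bins by length. The squares fall from 0.26 to -0.14 with length, and most members lie above the line.

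Of the nuclear partners and assembly factors of these complexes, 36 of 43 listed genes were in the table and 35 were tested, of which 14 were higher and 1 was lower by limma, with a median of 0.23, where 12.0% of all tested genes were higher. Cox17, which carries copper to complex IV, rose most (0.51 ± 0.07 SE, limma adjusted p = 0.000222), and 0.54 remained with the length trend removed. The smallest rise called was that of Cox19, another copper assembly factor (0.26, adjusted p = 0.0451), and Lrpprc, which stabilizes mitochondrial mRNA, was the gene called lower (-0.16, adjusted p = 0.0482). With a library left out 10 to 19 partners were called higher, and Lrpprc kept a call only when wild-type replicate 3 or Mbd2-/- replicate 4 was the one left out. With the length trend by longest transcript removed 3 of the 35 were called, and the median was 0.03. As 8.05% of all genes were then called higher, the share of partners called was near that of all genes. By median coding transcript 6 of 34 were called higher, and the share of all genes was not determined. The mitochondrially encoded subunits were not analysed here.

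Of 16 tested regulators of mitochondrial biogenesis, 0 were higher and 4 were lower by limma, with a median of -0.01, where 12.0% of all tested genes were higher and 10.0% lower. The 0 of 16 is near the share of all genes, and 1 regulator was called higher without Mbd2-/- replicate 4. DESeq2 and edgeR each called 0 higher and 3 lower. At an unadjusted p under 0.05, 1 was higher by limma (Nfe2l2), 0 by DESeq2 and 2 by edgeR (Nfe2l2 and Tfb1m). The lower genes were Pprc1 (-0.43 ± 0.08 SE, adjusted p = 0.00148), Esrrg (-0.34), Gabpb2 (-0.30) and Ppargc1b (-0.29). After length correction Pprc1 (-0.35) and Ppargc1b (-0.26) stayed called, Esrrg (adjusted p = 0.0865) and Gabpb2 (0.142) did not, and the median of the list was 0.05. The share of all genes called lower in that fit was not determined, so these calls cannot be set against it. Pprc1 and Ppargc1b are coactivators of the PGC family. With a library left out 1 to 4 regulators were called lower, the lowest number without wild-type replicate 3. Ppargc1a, the best known of that family, had -0.05, Nrf1 -0.04, Gabpa -0.02, Tfam, which maintains mitochondrial DNA, 0.03 and Esrra 0.12, and none of these passed the test. Of the 38 genes of complexes I and II, 32 were higher and 0 lower, with a median of 0.35, and 13 were called with the length trend removed, where 8.05% of all genes were called higher.

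Because Cox8b is a muscle and brown fat isoform, markers of other cells were read beside it. Of 18 skeletal and cardiac muscle markers 7 were tested and 0 were called by limma, DESeq2 or edgeR (at an unadjusted p under 0.05, 0 were higher and 2, Actn2 and Myh6, were lower in each). With 12.0% of all tested genes higher and 10.0% lower, 0 of 7 is near the share of all genes. Their summed level was 567 to 646 normalized counts in wild-type and 492 to 568 in Mbd2-/- libraries. The defining muscle gene Ckm was between 0 and 2.12 in every library, and the brown fat gene Ucp1 between 0 and 0.915. Of 4 tested brown fat markers, Dio2, which astrocytes also express, was higher (0.43), and of 11 pericyte and smooth muscle markers Rgs5 (0.44) and Kcnj8 (0.66) were higher, which is near the 12.0% of all tested genes. These 3 genes stayed called after length correction, and Actn2 (-0.30) and Pdgfrb (0.21) were then called too.

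Markers of the choroid plexus and the thalamus moved with the genotype. All 18 choroid plexus markers were higher (median 0.83, sums given with Cox8b). Of 12 thalamus markers 10 were lower by limma and 11 by DESeq2 and by edgeR, and 0 were higher by any of them, also at an unadjusted p under 0.05 (median -0.51), with sums of 6062 to 6178 and 4128 to 4672. Of 12 markers of parvalbumin interneurons, cells known for many mitochondria, 6 were lower and 2, Pvalb (0.37) and Tac1 (0.46), were higher, and of 10 markers of hippocampal neurons 3 were lower and 1 was higher. Among all tested genes 12.0% were higher and 10.0% lower. The shares of higher markers in the last 2 lists are close to the first value. Those of lower markers, 6 of 12 and 3 of 10, are larger than the second. After length correction all 18 choroid plexus markers were called higher and 11 thalamus markers lower. In that fit 8.05% of all genes were called higher, and the share called lower was not determined. Pvalb (0.11, adjusted p = 0.37) and Tac1 (0.21, adjusted p = 0.313) then lost their calls, as did Syt2 (adjusted p = 0.172), while Slc32a1 was then called (-0.26, adjusted p = 0.0225). The interneuron markers called were then 6, all lower, and 6 hippocampal markers were called. Of these, Bok (0.34) and Zbtb20 (0.24) were higher, and Wfs1 (-0.29), Fibcd1 (-0.22), Slc17a7 (-0.16) and Prox1 (-0.16) were lower. No marker stood at 0 in all libraries of these lists, and the part of cell makeup in the differences of the respiratory genes was not tested.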

How the data were processed

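RNA of 8 pools was sequenced as paired ends of 100 bases. Per the labels and the methods of the study, the authors discarded duplicate reads, used STAR for alignment to mm9 and DESeq2 for their comparison. Versions, the read counter and its strand setting are not given in the sources used here. The signal deposited by the authors is a normalized count per gene and library, reads divided by the DESeq2 size factor. Another 6 deposited columns (mean, log2 fold change, SE, Wald statistic, p-value and adjusted p-value of the authors' comparison) were not used. All values above 0 were whole multiples of 1 read to within 0.01 read, so 100% of them could be turned back into reads for the count tests.

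The 14504 genes whose normalized counts averaged 10 or more entered limma 3.58.1 (R 4.3.3, trend and robust moderation) as log2(normalized count + 1), with Benjamini-Hochberg adjustment over all of them. The pseudocount of 1 understates fold changes of low genes. Values after ± are SE. The p-values measure the spread between pools. Isoform ratios had an exact two-sided permutation test over libraries, and their intervals hold all shifts that this test keeps at 0.05. For the length correction, a smooth trend on the log of the longest transcript (GENCODE vM1, mm9) was removed from each library. Symbols were matched for 18102 of 19201 genes. Pairs of libraries of a genotype differed by 1.92 to 13.9 times the counting variance, so none was a repeat. Replicate numbers did not pair libraries.

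Results were recomputed with edgeR 4.0.16 (quasi-likelihood) and DESeq2 1.42.0, and with TMM and upper quartile scaling, a pseudocount of 5, no filter, a mean of at least 50, the length correction by longest or by median coding transcript (the latter chosen after seeing the data), a replicate block, subunits only and each library left out. The members, lists and tests were chosen with earlier results of these data known. Named with full values were the isoform pairs, the 3 members with the smallest p in each complex, the most abundant member not called in a complex, Cox7a2l and Atp5a1, and of other lists the largest and smallest called changes and 5 regulators. All other named genes were chosen after their values were seen. Protein sequences were not analysed here.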

Additional observations from a re-analysis of the deposited data

Results flagged for a closer look

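In 82 groups of 4 libraries of tested members, 2 held a library far from the other 3, where chance gives about 1 in 20 groups. Atp5s stood at 115 normalized counts in wild-type replicate 3, against 151 to 156 in the other wild-type libraries. Cox8a stood at 3694 in wild-type replicate 4, against 3403 to 3427 in the others, and this is the library that Mbd2-/- replicate 4 did not exceed. Both distances are to the nearest of the other 3 libraries, and no Mbd2-/- library was far from its group by this measure.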

How the results depend on the processing

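The count of members called higher was 31 to 37 with a library left out (median log2 fold change 0.33 to 0.43) and 33 to 36 under the other tests, scalings, pseudocount, filters and member choice, with 0 called lower throughout. The length correction moved it to 17 (median 0.13) by longest and to 22 (median 0.20) by median coding transcript. Of the 34 called members 31 kept the call with every library left out. Atp5a1, Cox5a and Cox7a2 lost it for at least 1, and 14 kept it in every setting with all libraries in which they were tested, which for Cox8b and Cox6b2 leaves out the filter at a mean of 50. Cox7a2 reversed to -3.81e-04 with the length correction by longest transcript. By longest and by median coding transcript, nuclear partners called higher fell from 14 to 3 and 6 and those called lower from 1 to 0 and 0, regulators called lower from 4 to 2 and 2, and complexes I and II from 32 to 13 and 18. Partners called lower were also 0 with no filter, the replicate block and TMM scaling. With a library left out, partners called lower ranged from 0 to 1, regulators called lower from 1 to 4 and called higher from 0 to 1, and the log2 fold change of Mbd2 from -0.56 to -0.35. Leaving out wild-type replicate 3 left 1 regulator called lower, and leaving out wild-type replicate 2 or 4 or Mbd2-/- replicate 2 or 3 left 2, while 1 was called higher in the absence of Mbd2-/- replicate 4. The Cox7a1/Cox7a2 ratio, not called, was 0.07 without Mbd2-/- replicate 4.

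Same-numbered libraries deviated with correlations of -0.10, -0.06, 0.07 and 0.04, so the numbers were not taken as pairs, and with a replicate block 36 members were called, Atp5d among them (adjusted p = 0.0312). The paired exact test of the isoform ratios could not go below p = 0.125. Counts of 7 to 72 reads limit Cox8b and Cox6b2. The longest transcript is several times the median one in some members, such as Cox6c, Atp5e and Atp5g1, so the length correction by longest transcript is uncertain for these.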
